A study of Mus musculus with 6 samples.

Results

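The mitochondrial ribosomal proteins are the protein subunits of the ribosome inside mitochondria. They were taken here as the genes whose array probeset carried a single gene symbol starting with Mrpl (large subunit) or Mrps (small subunit) and a number. That gave 77 genes out of 19938, 48 of the large and 29 of the small subunit. In viWAT, obese mice that carried PdgfraCre on a floxed Hmox1 background were compared with floxed mice without Cre. Of the 73 members that passed an intensity filter and were tested, 65 (89.0%) read lower with Cre, against 57.4% of all genes tested. The median difference over all 73 was -0.10 on the log2 scale, beside -0.03 over all genes tested. No member reached an adjusted p under 0.05 by limma.

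The study deleted Hmox1, the gene of heme oxygenase-1 (HO-1, the enzyme that breaks down heme), in adipose precursors (APs) and profiled perigonadal visceral fat (viWAT) after a high-fat diet (HFD). There were 3 arrays of Hmox1f/f PdgfraCre mice, numbered 1 to 3, and 3 of Hmox1f/f mice, numbered 4 to 6, each made from a pool of 2 mice on the C57BL/6J background. All mice were floxed at Hmox1 exon 2 and were fed HFD for 8 weeks, which began at an age of 6 weeks. The groups differ in Cre driven by the Pdgfra promoter, which the controls lack, so that effects of Cre as such and of the Hmox1 deletion cannot be told apart. The labels name the material as viWAT in some fields and as APs purified with beads in others. Pdgfra itself read 10.05 to 10.36 in log2 intensity, but the adipocyte genes Adipoq (12.74 to 13.10) and Lep (13.12 to 13.37) and the macrophage gene Cd68 (12.36 to 13.09) were far above the filter on every array, so the values are described as those of viWAT. In such bulk RNA, fewer cells of a type and less RNA per cell cannot be told apart.

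The mitochondrial ribosome is made of ribosomal RNAs encoded by mitochondrial DNA and of proteins that are all encoded in the nucleus, made in the cytosol and imported. It translates only the few proteins that mitochondrial DNA still encodes, which are core subunits of the respiratory chain and ATP synthase. Adipocytes rely on it during differentiation, when mitochondrial mass grows. Some of its proteins descend from the bacterial ribosome and others were added in the mitochondrial lineage.

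Promoters of such genes often carry sites for the ETS-family factor GABP (also called NRF2, not the heme-related NRF2 encoded by Nfe2l2), for NRF1 and for YY1, and the RefSeq promoters of the members were therefore searched for 3 exact motifs on both strands. The letters searched were CCGGAAGT for ETS, CGCATGCG for NRF1, which reads the same on both strands, and AAGATGGCG for YY1. No motif lies within another. Each promoter ran from 250 bases before the transcription start to 50 bases after it (build GRCm38.p6), and 68 of the 77 members matched a promoter, with 74 promoters in all. The following stretches come from the 4 matched members that had both a motif and an unadjusted p under 0.05, with the motif in capitals, read 5′ to 3′ along the gene.
Mrps26, ETS motif on the opposite strand, chr2:130563720-130563771, plus strand: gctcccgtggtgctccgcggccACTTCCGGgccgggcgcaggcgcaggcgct
Mrpl36, YY1 motif on the opposite strand, chr13:73330956-73331008, plus strand: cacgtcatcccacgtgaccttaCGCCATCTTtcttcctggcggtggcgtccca
Mrps18a, YY1 motif on the same strand, chr17:46110993-46111033, plus strand: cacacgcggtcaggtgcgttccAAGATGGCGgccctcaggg
Mrps27, ETS motif on the opposite strand, chr13:99344715-99344766, plus strand: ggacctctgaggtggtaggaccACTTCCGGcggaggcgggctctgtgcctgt
Mrps27, YY1 motif on the same strand, chr13:99344778-99344815, plus strand: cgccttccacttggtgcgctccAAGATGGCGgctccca
The NRF1 motif is shown from Mrpl32, which held it at 2 places, 86 and 23 bases before the start.
Mrpl32, NRF1 motif, chr13:14613094-14613145, minus strand: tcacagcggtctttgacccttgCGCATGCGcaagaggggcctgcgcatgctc
Mrpl32, NRF1 motif, chr13:14613031-14613082, minus strand: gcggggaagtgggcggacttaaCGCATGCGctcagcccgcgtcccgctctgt

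An ETS motif was found in 12 of the 74 member promoters (16.2%), against 3.89% of all 32851 promoters of the table. The NRF1 motif was in 7 (9.46%, against 1.87% of all) and the YY1 motif in 8 (10.8%, against 1.40%). At least 1 of the 3 was in 26 member promoters (35.1%, against 6.79%), belonging to 18 of 42 large-subunit genes and 8 of 26 small-subunit genes. Letters that match are a description and not proof of binding. The table also holds promoters of genes that were not tested here, and the members were not compared with promoters of tested genes alone. The median genotype difference was alike with and without a motif, at -0.10 for the 24 tested members with a motif and -0.10 for the 40 tested members with a promoter but no motif. In the former 22 were lower with Cre, and in the latter 34. By single motif the medians with and without were -0.13 and -0.10 for ETS, -0.10 and -0.10 for NRF1, and -0.10 and -0.10 for YY1. At an unadjusted p under 0.05 by limma, 2 of 12 tested members with ETS, 0 of 6 with NRF1 and 3 of 7 with YY1 were lower. That stands beside 12.8% of all genes, and the motifs were not tested against the differences.

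**Figure D1:**
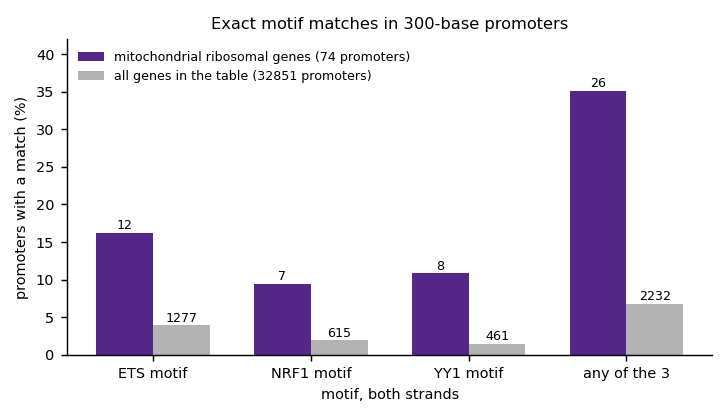
Percentage of 300-base RefSeq promoters that hold an exact motif on either strand, for mitochondrial ribosomal genes (purple, 74 promoters) and for all genes of the table (gray, 32851 promoters), with the number of promoters above each bar. Each motif was more frequent in the member promoters, 35.1% of which held at least 1 of the 3 against 6.79% of all.

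Before the members, the targeted gene was checked on each array. Hmox1 read 11.25, 11.36 and 10.74 with Cre and 11.90, 11.63 and 12.32 without, so that the groups did not overlap, and the difference was -0.83 ± 0.23 (SE; limma adjusted p = 0.266). A whole-transcript probeset may also read exons outside the deleted one, and Hmox1 stays intact in cells where the Pdgfra promoter was never active. The 12 macrophage markers listed below also read lower with Cre (median -0.40). The part that the deletion and the cell types have in the Hmox1 difference was not tested. The correlation between arrays ran from 0.960 to 0.996, and no array duplicated another. Of the 11024 genes that passed the intensity filter (log2 over 7 on 3 or more arrays), 0 had an adjusted p under 0.05 by limma, where the smallest value was 0.266, while 1406 were lower and 334 higher with Cre at an unadjusted p under 0.05. Arrays Hmox1f/f PdgfraCre 1 and Hmox1f/f 6 stood apart by genes of the epididymis, with mean log2 intensities of 8.65 and 8.26 over 5 such genes, against 5.61 to 6.27 on the other arrays. Single epididymal genes were raised elsewhere too. Adam7 read 8.93 on Hmox1f/f PdgfraCre 3, above the 7.85 on Hmox1f/f 6, and Gpx5 read 6.87 on Hmox1f/f 5. The main counts are also given without Hmox1f/f PdgfraCre 1 and Hmox1f/f 6, which does not remove all epididymal signal.

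Of the 73 members tested, 65 (89.0%) read lower with Cre, where 57.4% of all genes tested did. The median difference of the members was -0.10, with quartiles of -0.17 and -0.06 and a range from -0.37 to 0.19, beside a median of -0.03 over all genes tested. The differences were thus small, and most had the same sign. At an unadjusted p under 0.05, 9 members (12.3%) were lower, which is no more than the 12.8% of all genes, and 0 were higher, where 3.03% of all genes were. That comparison depends on the intensity filter: with no filter 10 of 77 members (13.0%) were lower at this threshold, against 7.50% of all genes, and with the filter set at log2 6 it was 13.2% against 10.2%. By adjusted p in limma 0 members passed, beside 0% of all genes. In 25 members (34.2%) all 3 arrays with Cre lay below all 3 without, against 21.2% of all genes, and in 0 members they lay above, against 5.82%. The members varied little between replicates: their median SD within a group was 0.087, against 0.123 over all genes, and the median SE of their difference was 0.084, against 0.101.

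In a fit without the pair of arrays with the highest mean of epididymal genes, 61 of the 73 members read lower with Cre. That is 83.6%, against 59.1% of all genes, with a median difference of -0.08. The count at an unadjusted p under 0.05 became 5 members (6.85%), beside 3.25% of all genes in the same fit. The alternative weights that limma gives to arrays by their fit ran from 0.353 for Hmox1f/f PdgfraCre 3 to 3.60 for Hmox1f/f 5. With these weights 22 members were lower at an unadjusted p under 0.05 (30.1%), where 17.2% of all genes were. Without Hmox1f/f PdgfraCre 3 alone the count was 14 (19.2%, against 10.9% of all genes), and without Hmox1f/f 5 alone it was 5 (6.85%, against 9.62%).

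**Figure D2:**
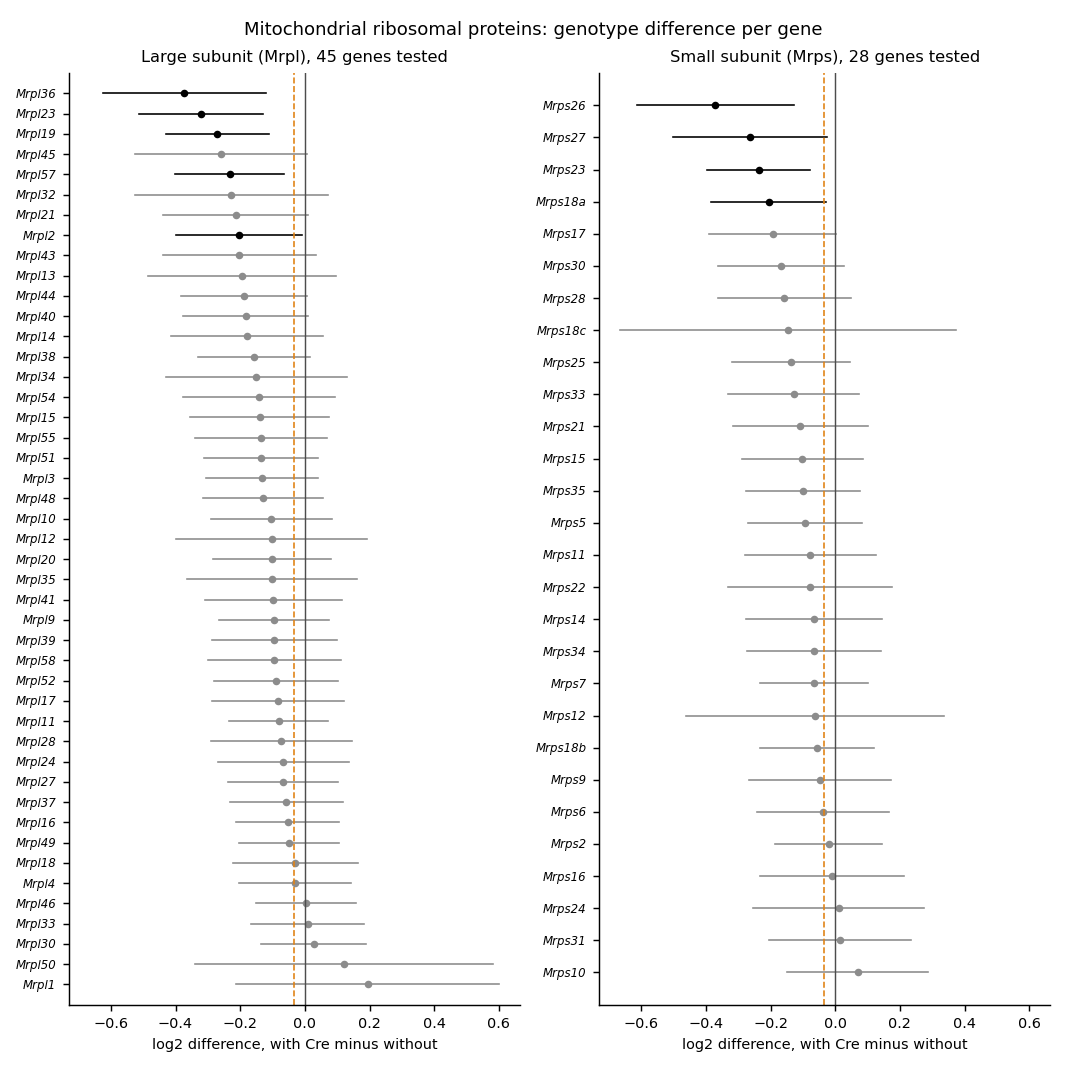
Difference in log2 intensity, Hmox1f/f PdgfraCre minus Hmox1f/f, with its 95% interval from limma (n = 3 arrays per group), for the 45 large-subunit genes (left) and the 28 small-subunit genes (right) tested. Black marks an unadjusted p under 0.05, and the dashed line is the median of all genes tested (-0.03). Most points lie left of zero in both panels. Black are 5 large-subunit (11.1%) and 4 small-subunit genes (14.3%), all lower with Cre, beside 12.8% of all genes lower at this threshold.

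The large and the small subunit were set against each other. In the large subunit 40 of 45 tested genes read lower with Cre (88.9%, median difference -0.10). In the small subunit 25 of 28 did (89.3%, median -0.09), beside 57.4% of all genes. At an unadjusted p under 0.05 there were 5 lower genes in the former (11.1%) and 4 in the latter (14.3%), near the 12.8% of all genes. The groups did not overlap in 17 (37.8%) and 8 genes (28.6%), all of them lower with Cre, beside 21.2% of all genes. The subunits were also compared within each array, by averaging the deviation of each gene from its own mean over the 6 arrays. The large subunit deviated by -0.10, -0.02 and -0.05 on arrays 1 to 3 with Cre and by 0.05, 0.06 and 0.07 on arrays 4 to 6 without. The small subunit deviated by -0.08, -0.03 and -0.05 with Cre and by 0.06, 0.04 and 0.05 without. Both subunits were thus below their mean on every array with Cre and above it on every array without. Large minus small was -0.02, 0.00 and 0.00 with Cre and -0.01, 0.02 and 0.01 without, so that the genotypes overlapped, and the group means of this quantity differed by -0.01, less than its SD within either group (0.015 with Cre and 0.016 without, n = 3). A difference between subunits was therefore not seen at this number of arrays.

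The arrays did not take part equally. Array Hmox1f/f PdgfraCre 1 held the lowest value of 30 of the 73 members (41.1%, against 24.3% of all genes). Hmox1f/f PdgfraCre 3 held that of 25 (34.2%, against 25.9%). Hmox1f/f PdgfraCre 2 held that of 11 (15.1%), near the 14.2% of all genes. Array Hmox1f/f 6 gave the lowest value of 26.9% of all genes but of only 3 members (4.11%). It held the highest value of 26 of the 73 members and of 24.5% of all genes. All genes tested deviated by -0.04, -0.03 and 0.02 with Cre and by 0.04, 0.02 and -0.00 without. After subtracting that from the members, array 2 with Cre stood at 0.0055 and array 4 without Cre at 0.0085, the closest pair between the genotypes. Relative to all genes the shift was carried by arrays 1 (-0.05) and 3 (-0.07) with Cre and by arrays 5 (0.04) and 6 (0.07) without.

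**Figure D3:**
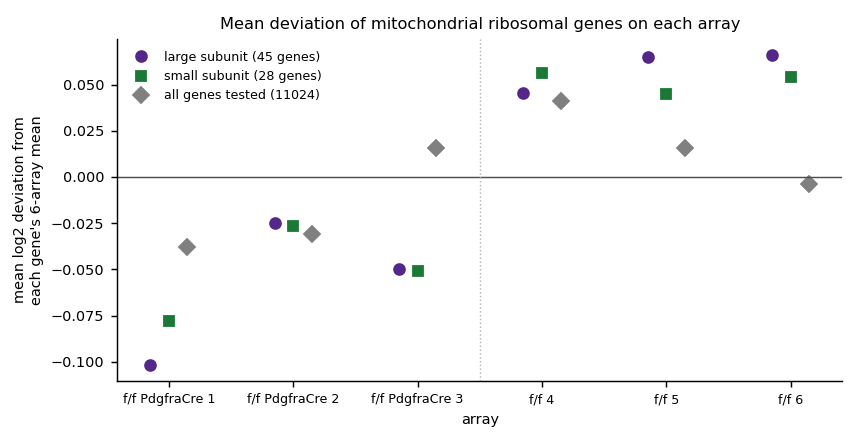
Mean deviation in log2 intensity from each gene's mean over 6 arrays, for each array (f/f PdgfraCre 1 to 3 left of the dotted line, f/f 4 to 6 right of it), of the large subunit (circles, 45 genes), the small subunit (squares, 28 genes) and all genes tested (diamonds, 11024 genes). Both subunits lie below zero on the 3 arrays with Cre and above zero on the 3 without, and they lie closer to each other than the genotypes do.

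Among large-subunit proteins with the smallest p-values, Mrpl19 and Mrpl36 are counterparts of bacterial ribosomal proteins, Mrpl23 lies at the mouth of the tunnel through which the new protein leaves, and Mrpl57 is a small protein found only in mitochondrial ribosomes. Mrpl19 read 8.13, 8.07 and 8.06 with Cre and 8.37, 8.38 and 8.32 without. The groups were separated by more than the spread within either, and the difference was -0.27 ± 0.07 (1.21-fold lower; limma unadjusted p = 0.00565, adjusted p = 0.266). Mrpl23 read 8.33, 8.41 and 8.31 with Cre and 8.57, 8.77 and 8.68 without, a difference of -0.32 ± 0.08 (1.25-fold lower; limma unadjusted p = 0.00607, adjusted p = 0.266). A second probeset of Mrpl23 gave -0.30, also without overlap. Mrpl36 read 7.94, 8.25 and 8.23 with Cre and 8.48, 8.58 and 8.48 without, and array 1 was the lowest by a wide margin. Its difference of -0.37 ± 0.10 was, beside that of Mrps26, the largest among the members tested (limma unadjusted p = 0.0108, adjusted p = 0.266). Mrpl57 read 7.74, 7.82 and 7.80 with Cre and 7.96, 8.07 and 8.03 without, again with no overlap (-0.23 ± 0.07; limma unadjusted p = 0.0143, adjusted p = 0.266).

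Another large-subunit gene, Mrpl2, a conserved protein close to the catalytic center, was taken up after its values were seen because it also had an unadjusted p under 0.05. It read 8.63, 8.69 and 8.76 with Cre and 8.85, 8.84 and 9.01 without. The groups were separated by less than 0.1, and the 95% interval of the difference (-0.20 ± 0.08 SE) ran from -0.40 to -0.01 (limma adjusted p = 0.304).

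In the small subunit, Mrps26, Mrps23 and Mrps27 are proteins added in the mitochondrial lineage, and Mrps27 belongs to the RNA-binding pentatricopeptide repeat proteins. Mrps26 read 7.60, 7.42 and 7.29 with Cre and 7.89, 7.73 and 7.80 without, so that the spread among arrays with Cre was the wider one (-0.37 ± 0.10; 1.29-fold lower; limma unadjusted p = 0.00902, adjusted p = 0.266). Mrps23 read 9.16, 9.15 and 9.14 with Cre and 9.33, 9.42 and 9.42 without. Its arrays with Cre were almost identical (SD 0.0064, n = 3), and the difference was -0.24 ± 0.07 (limma unadjusted p = 0.0102, adjusted p = 0.266). Mrps27 read 7.17, 7.43 and 7.17 with Cre and 7.43, 7.52 and 7.60 without. Array 2 with Cre all but reached array 4 without, and the difference was -0.26 ± 0.10 (limma unadjusted p = 0.0354, adjusted p = 0.291).

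Mrps18a belongs to a family of 3 related proteins, Mrps18a, Mrps18b and Mrps18c, which all derive from 1 bacterial protein but sit at different places in the ribosome: despite its name, Mrps18a is a protein of the large subunit. It read 8.72, 8.69 and 8.67 with Cre and 8.83, 8.87 and 8.99 without, with no overlap (-0.21 ± 0.07; limma unadjusted p = 0.0291, adjusted p = 0.282). Mrps18b read 9.48, 9.52 and 9.56 with Cre and 9.49, 9.61 and 9.63 without, which overlapped (-0.06 ± 0.07; limma adjusted p = 0.700). Mrps18c varied most between replicates, with 8.12, 8.18 and 8.86 with Cre and 8.60, 8.69 and 8.32 without, and its interval from -0.67 to 0.37 leaves its direction undetermined. The 3 relatives were not tested against each other. Mrps30, which also sits in the large subunit despite its name, read 7.64, 7.77 and 7.81 with Cre and 7.96, 7.94 and 7.83 without (-0.17 ± 0.08; limma adjusted p = 0.350). Sorting Mrps18a and Mrps30 by their place in the structure left both medians nearly as they were, with -0.10 for 47 large-subunit genes and -0.08 for 26 small-subunit genes.

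**Figure D4:**
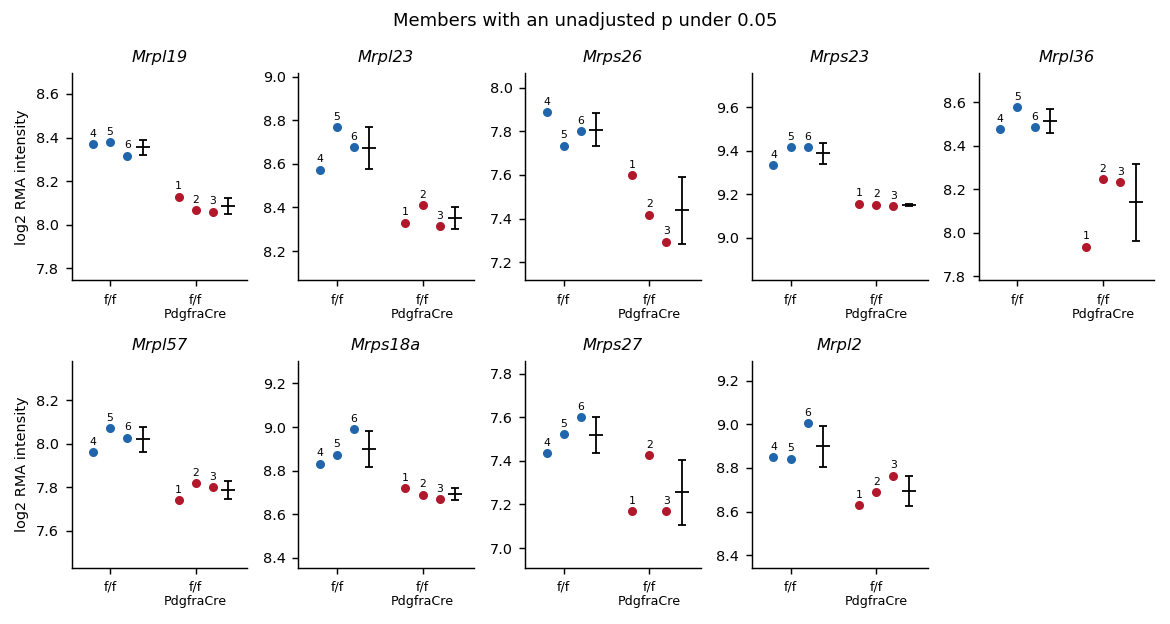
Log2 intensity on each array (numbered points, blue for Hmox1f/f and red for Hmox1f/f PdgfraCre) of the 9 members with an unadjusted p under 0.05, ordered by p, with the group mean and SD (n = 3) beside the points. All vertical axes span the same range, and in each gene the 3 arrays with Cre lie below the 3 without, by least in Mrps27.

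Only 8 of the 73 members had a difference above 0, and the groups overlapped in all 8. Mrpl1, the protein of the mobile L1 stalk that guides used tRNA out of the ribosome, read 7.92, 7.94 and 8.41 with Cre and 7.92, 8.08 and 7.69 without. Array 3 alone was high with Cre, and the difference was 0.19 ± 0.17 (limma unadjusted p = 0.293). Mrpl50, a protein found only in mitochondrial ribosomes, read 8.30, 8.65 and 8.96 with Cre and 8.49, 8.74 and 8.31 without, a spread within groups as wide as any distance between them (0.12 ± 0.19; limma unadjusted p = 0.549). Mrps10 in the head of the small subunit differed by 0.07 ± 0.09. Mrps24, which lines the entry of the mRNA, differed by 0.01 ± 0.11, and Mrps31 by 0.01 ± 0.09. Mrpl30, Mrpl33 and Mrpl46 of the large subunit differed by 0.03 ± 0.07, 0.01 ± 0.07 and 0.00 ± 0.06. With the array weights Mrpl1 and Mrpl50 turned to -0.02 and -0.16, so that their direction is not settled.

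The genes that did not pass the intensity filter were Mrpl22, Mrpl42, Mrpl47 and Mrps36, and they have values but no test. Mrps36, now known as a component of the 2-oxoglutarate dehydrogenase complex of the citric acid cycle rather than of the ribosome, read 6.64, 6.92 and 6.81 with Cre and 6.98, 7.27 and 7.30 without. That is a difference of -0.39 without overlap, and a second probeset gave -0.43, also without overlap. Mrpl22, another protein of the exit tunnel, read 5.81, 5.86 and 5.58 with Cre and 5.93, 5.93 and 6.30 without (-0.30), likewise without overlap but near the low end of the scale. Mrpl42 (0.01) and Mrpl47 (0.04) overlapped between genotypes.

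The members were then described by their place in the ribosome, using lists of known locations. Like the other lists, these were chosen with earlier results of these data known. The counts stand beside 89.0% of all members tested and 57.4% of all genes that read lower with Cre. Of the stalk that recruits translation factors, all 3 genes (Mrpl10, Mrpl11 and Mrpl12) were lower with Cre (median -0.10). In 2 of them the groups did not overlap, as in 34.2% of all members and 21.2% of all genes in this direction. Of the proteins around the exit of the polypeptide tunnel, all 6 tested were lower (median -0.14). Among them Mrpl45, which tethers the ribosome to the inner mitochondrial membrane, read 8.23, 8.49 and 8.57 with Cre and 8.63, 8.65 and 8.79 without (-0.26 ± 0.11; limma unadjusted p = 0.0534). Of the central protuberance, the knob of the large subunit that faces the small one, 6 of 7 were lower (median -0.13). In the small subunit, 3 of 4 proteins around the mRNA path and decoding site were lower (median -0.04), and 4 of 6 in the head (median -0.06). The medians of these last lists were near that of all genes (-0.03). The lists are short, and the locations were not tested against each other.

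By origin, 39 of 44 tested members with a bacterial counterpart (88.6%) were lower with Cre (median -0.09). Of members listed as found only in mitochondria, 24 of 27 (88.9%) were lower (median -0.13), beside 57.4% of all genes. Averaged over each array, the former deviated by -0.09, -0.01 and -0.05 with Cre and by 0.05, 0.05 and 0.05 without. The latter deviated by -0.10, -0.05 and -0.04 with Cre and by 0.04, 0.06 and 0.08 without. Relative to all genes tested, the members with a bacterial counterpart stood at -0.05, 0.02 and -0.07 with Cre and at 0.01, 0.04 and 0.05 without, so that the genotypes overlapped. The members listed as found only in mitochondria stood at -0.06, -0.02 and -0.06 with Cre. They did not overlap the controls, which began at 0.00073 on array 4. The list of members found only in mitochondria holds Mrps18b, although that protein derives from a bacterial one. Mrps18a and Mrps30 were tested but are in neither list. The origins were not tested against each other.

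Where a gene had more than 1 probeset, as 8 members did, both were compared. The probesets of Mrps5 (-0.09 and -0.09) gave the same difference, those of Mrpl51 gave -0.14 and -0.22, those of Mrpl27 -0.07 and -0.16 and those of Mrps33 -0.13 and -0.02. Mrpl41 was the exception in direction, with -0.10 in the brighter probeset and 0.10 in the other, and the groups overlapped in both. Many ribosomal protein genes have processed copies elsewhere in the genome, and the annotation used here does not tell which copy a probeset reads. Mrpl53 shares its probeset with Ccdc142 and was left out for that reason.

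Several subunits of the mitochondrial ribosome do not carry an Mrp name. Of 5 such genes tested, 1 (Mrpl58, a peptide-releasing hydrolase built into the large subunit) is now named as a member. It is therefore also counted in the large subunit above. Lower with Cre were 4, Mrpl58 among them (80%, against 57.4% of all genes), and 1 of these had an unadjusted p under 0.05 (20%, against 12.8%). That gene was Dap3, a GTP-binding protein of the small subunit, which read 7.92, 8.04 and 8.19 with Cre and 8.24, 8.29 and 8.41 without (-0.26 ± 0.10; limma unadjusted p = 0.0346, adjusted p = 0.290). Chchd1 differed by -0.18 ± 0.09 and Gadd45gip1, a large-subunit protein also called CRIF1, by -0.16 ± 0.10, both with overlap.

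Of 20 tested genes for assembly of the ribosome, 16 (80%) were lower with Cre (median -0.07), against 57.4% of all genes. At an unadjusted p under 0.05 there was 1 lower gene (5%, against 12.8% of all genes). Rbfa, which matures the RNA of the small subunit, read 8.38, 8.27 and 8.21 with Cre and 8.55, 8.57 and 8.72 without. The groups did not overlap, and the difference was -0.33 ± 0.08 (1.26-fold lower; limma unadjusted p = 0.00716, adjusted p = 0.266). Eral1, a chaperone of the same RNA, differed by -0.18 ± 0.09 and Nsun4, an RNA methyltransferase that joins the subunits, by -0.16 ± 0.08, both without overlap and with limma adjusted p-values of 0.349 and 0.369.

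Among the factors of translation itself, 9 of 14 tested (64.3%) were lower with Cre (median -0.04), near the 57.4% of all genes. At an unadjusted p under 0.05 there were 2 lower genes (14.3%, near the 12.8% of all genes). Taco1, an activator of translation of the COX1 mRNA, read 7.29, 7.52 and 7.43 with Cre and 7.68, 7.66 and 7.64 without (-0.25 ± 0.08; limma adjusted p = 0.271). Tufm, the elongation factor that delivers tRNA, read 8.39, 8.54 and 8.43 with Cre and 8.68, 8.67 and 8.64 without (-0.21 ± 0.07; limma adjusted p = 0.271). In both the control arrays lay close together and all were above the arrays with Cre. Oxa1l, which inserts new proteins into the inner membrane, differed by -0.14 ± 0.06 (limma adjusted p = 0.341).

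The aminoacyl-tRNA synthetases of mitochondria, which charge tRNAs, gave 11 lower with Cre of 17 tested (64.7%, against 57.4% of all genes). Lower at an unadjusted p under 0.05 were 0, against 12.8% of all genes. The median of these synthetases (-0.04) was near that of all genes. The 3 with the smallest p-values were Fars2 (-0.15 ± 0.07), Tars2 (-0.14 ± 0.07) and Yars2 (-0.14 ± 0.10), and Fars2 and Tars2 did not overlap between genotypes. Mars2 was also lower without overlap (-0.08 ± 0.06), whereas Iars2 was higher without overlap, with 9.91, 9.92 and 9.98 with Cre and 9.80, 9.86 and 9.89 without (0.09 ± 0.07). Of 5 tested genes that copy or transcribe mitochondrial DNA, 2 were lower (40%, against 57.4% of all genes), with a median of 0.04. Tfam (-0.31), Polg2 (0.08) and Twnk (0.02) of the same list did not pass the intensity filter and are not in that median. Their groups overlapped. Ssbp1, which coats single-stranded mitochondrial DNA, differed by 0.16 ± 0.09, Tfb2m, a transcription initiation factor, by 0.08 ± 0.14 and Polrmt, the RNA polymerase, by -0.04 ± 0.07, all with overlap. The differences of these lists from the members were not tested.

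**Figure D5:**
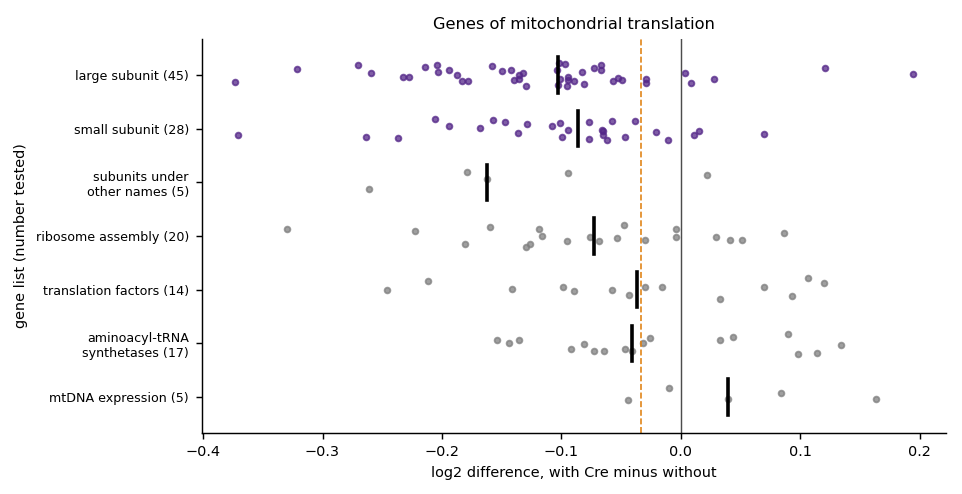
Difference in log2 intensity, Hmox1f/f PdgfraCre minus Hmox1f/f, of each tested gene (points) in the lists of mitochondrial translation, with the list median (black bar), the median of all genes tested (dashed line, -0.03) and zero (solid line). Points spread vertically within a row only to be seen apart. Mrpl58 appears both in the large subunit and in the subunits under other names. Both subunits lie mostly left of zero, and the median moves from -0.10 in the large subunit to 0.04 in the genes of mitochondrial DNA expression.

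Lists of related function were read in the same way. Of 58 tested proteins of the cytosolic ribosome, 49 (84.5%) were lower with Cre (median -0.12). Of 80 tested nuclear genes of oxidative phosphorylation, 66 (82.5%) were lower (median -0.08), beside 57.4% of all genes. At an unadjusted p under 0.05 there were 8 (13.8%) and 7 (8.75%) lower genes, beside 12.8% of all genes. The groups did not overlap, lower with Cre, in 28 genes of the cytosolic ribosome (48.3%) and 17 of oxidative phosphorylation (21.3%), beside 21.2% of all genes. No list was tested against another. On single arrays the cytosolic ribosome deviated by -0.02, -0.02 and -0.14 on arrays 1 to 3 with Cre and oxidative phosphorylation by -0.02, 0.01 and -0.12. Both were thus lowest on array 3, while the mitochondrial ribosome was lowest on array 1. Relative to all genes tested, however, the mitochondrial ribosome was also lowest on array 3 (-0.07, against -0.05 on array 1).

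Marker genes of the cell types in fat also differed between the genotypes in their readings. All 12 macrophage markers were lower with Cre (median -0.40), and their mean log2 intensity was 10.53 to 10.87 with Cre and 11.07 to 11.10 without. All 12 passed the intensity filter, and 0 had an adjusted p under 0.05 by limma. In 9 of them (75%) the groups did not overlap, against 21.2% of all genes in this direction. Cd163 (-0.02) and Mertk (-0.06) overlapped and lay near the median of all genes (-0.03). All 11 markers of mature adipocytes were higher (median 0.19), with means of 12.24 to 12.37 against 11.97 to 12.15, and all 6 endothelial markers were higher (median 0.38), with means of 9.93 to 10.17 against 9.44 to 9.81. Of the AP markers 4 of 7 were lower (median -0.04), with means of 10.19 to 10.29 against 10.23 to 10.37, and of the smooth muscle markers 4 of 5 (median -0.36), with means of 8.40 to 9.50 against 8.57 to 10.03. The 2 lymphocyte markers tested were lower (median -0.09), and the 1 epididymal marker tested, Adam7, was higher with overlap. The part that these cell types have in the difference of the mitochondrial ribosomal genes was not tested.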

How the data were processed

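RNA (200 ng) of 6 pools was hybridized to Affymetrix mouse gene arrays. The authors deposited 1 linear intensity for each probeset and array, as a whole number between 8 and 20701. Per the submitters' processing notes these came from RMA in Affymetrix Expression Console 1.1, whose quantile normalization hides a shift shared by most genes. Log2 was taken. Of 35556 probesets, 21789 carried 1 symbol, 1621 several and 12146 none here. Genes with several probesets were represented by the brightest one (mean of the 6 arrays). The study's methods state a linear model with empirical Bayes moderation for another set of arrays. Here limma 3.58.1 in R 4.3.3 (lmFit and eBayes, two-sided, genotype as the only term) was fitted on all 19938 genes, those above log2 7 in at least 3 arrays were kept (11024), and p-values were adjusted over these by Benjamini-Hochberg. The filter can pass a gene through its brighter group alone. The fit was tested on simulated data. Python 3.11.15 and matplotlib 3.10.9 were used for figures.

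Groups came from the labels, which give no batch. Pools are separate samples, p-values measure only the spread between them, and 3 arrays per group limit the precision. The members and gene lists were chosen with earlier results of these data known. Named were Hmox1, Pdgfra, in each subunit the 4 lower and 4 higher members with the smallest p, all untested members, Mrps30, Mrps36 and the Mrps18 family, and up to 3 genes with the smallest p per pathway list. Mrpl2, Mrpl45, Mrpl46, Mars2, Iars2, Tfam, Polg2, Twnk and members named only by location or probeset were added after their values were seen. The 13 protein genes of mitochondrial DNA were not analysed here. Alternatives covered the filter, normalization, moderation, array weights, probeset choice and left-out arrays.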

Additional observations from a re-analysis of the deposited data

How the results depend on the processing

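No member passed an adjusted p of 0.05 in limma under any setting tried (9 members had an unadjusted p under 0.05 in the reported fit), and between 75% and 94.5% of the members tested were lower with Cre. The count of members lower at an unadjusted p under 0.05 was 4 with the filter of the methods, which adds a criterion on spread and left 8 members to test (50%, against 26.1% of all genes), 22 with array weights and 5 without the pair Hmox1f/f PdgfraCre 1 and Hmox1f/f 6. Leaving out single arrays gave 5 to 14 (5 without Hmox1f/f replicate 5, 14 without Hmox1f/f PdgfraCre replicate 3). The median of the small subunit was -0.21 with the filter of the methods, -0.065 after further quantile normalization and -0.11 with arrays centred on their median. Large minus small was 0.11 with the filter of the methods and -0.030 to -0.0011 with single arrays left out. Centring moved the median of all genes from -0.03 to -0.06, with 63.1% of all genes lower.

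Of the genes followed under each setting, these turned sign. Centring gave Mrpl33 -0.018, Mrps31 -0.012 and Mrps24 -0.016. Array weights gave Mrpl1 -0.025, Mrpl50 -0.16, Mrpl33 -0.031, Mrps31 -0.024 and Tfb2m -0.063. Without the pair, Mrpl33 was -0.010 and Mrps10 -0.024. With single arrays left out, the range was -0.021 to 0.044 for Mrpl33, -0.088 to 0.097 for Mrps24, -0.041 to 0.29 for Mrpl50, -0.067 to 0.063 for Mrps31, -0.069 to 0.18 for Tfb2m and -0.082 to 0.0028 for Polrmt. The cause was not tested. Moderation over the tested genes alone, chosen after seeing the data, gave 11 lower members (15.1%, against 13.8% of all genes). No paired analysis was possible because the replicate numbers 1 to 3 and 4 to 6 are not shared between the genotypes.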
